A study of Mus musculus with 8 samples.

Results

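The genes described here encode 10 integrin subunits: the α subunits Itga2, Itga3, Itga5, Itga6 and Itgav and the β subunits Itgb1, Itgb4, Itgb5, Itgb6 and Itgb8. They were taken by symbol from a table of 10924 genes, and the list was chosen with earlier results of these data known. Of the 10 genes, 9 had a row. Itgb8 was absent from the table and was not analysed here. Of the 9, 7 reached 10 normalized reads in 2 or more libraries and were tested, and Itga2 and Itgb6 did not pass. Itga6 encodes CD49f, one of the surface proteins on which the cells had been sorted.

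The libraries came from cell lines derived from mammary tumors that the polyoma middle T oncogene drives (PyMT), in a strain labeled FBV/N. Cells that lacked Lats1 through a conditional deletion (Lats1-CKO) were set against wild-type (WT) cells, and both genotypes carried the oncogene. Within each genotype, flow cytometry gave a basal-like population (low EpCAM and high CD49f) and a luminal population (high EpCAM and high CD49f), which were expanded for a short time in culture before RNA was taken. The 4 groups were Lats1-CKO basal-like, Lats1-CKO luminal, WT basal-like and WT luminal, with 2 libraries each. MARS-seq, which counts reads from the 3′ ends of transcripts, was used. Values are normalized read counts, that is, reads divided by a scaling factor for each library, and replicate 1 is given before replicate 2 throughout. Nothing in the labels tells whether libraries of the same group stem from separate tumors or cultures, so the spread behind each p-value may be technical.

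Integrins are pairs of 1 α and 1 β subunit that span the cell membrane and join the extracellular matrix to the cytoskeleton. In the mammary gland, α6 pairs with β4 in hemidesmosomes, the junctions that fix epithelial cells to laminin in the basement membrane, and with β1 in other laminin receptors. The subunit α3 pairs with β1 to bind laminin, α5 pairs with β1 to bind fibronectin, α2 pairs with β1 to bind collagen, and αv pairs with β1, β5, β6 or β8 to bind proteins that carry the RGD motif. LATS1 is a kinase of the Hippo pathway, which restrains the coactivators YAP and TAZ.

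The libraries held 1070358 to 2334446 reads over all genes. Lats1 had 8.04 to 13.4 normalized reads in the 4 Lats1-CKO libraries and 30.3 to 62.5 in the 4 WT libraries. Epcam, the gene of the other sort marker, had 10.7 and 33.7 in Lats1-CKO basal-like cells, 511 and 555 in Lats1-CKO luminal cells, 562 and 255 in WT basal-like cells and 708 and 523 in WT luminal cells. The WT basal-like libraries therefore did not share the low Epcam level of the Lats1-CKO basal-like libraries, although both groups carry the label of low EpCAM. Across genes, the 2 Lats1-CKO basal-like libraries resembled each other less (Pearson r = 0.792 on the log2 scale) than the pairs of the other groups did (0.863 to 0.892), a description across genes, which are not independent. The first Lats1-CKO basal-like library was closer to the first Lats1-CKO luminal one (0.852), and the second to the second (0.868), than the basal-like libraries were to each other. The second Lats1-CKO basal-like library carried 22433 normalized reads of the cartilage collagen gene Col2a1 and the second Lats1-CKO luminal library 3099, against 72.1 to 106 in the other 6. Results are given below with and without single libraries where this matters.

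Itga6, on mouse chromosome 2 (chr2:71745616-71858416, plus strand, GRCm38), had ranges that overlapped between all groups. It had 48.2 and 195 normalized reads in Lats1-CKO basal-like cells, 81.6 and 338 in Lats1-CKO luminal cells, 139 and 182 in WT basal-like cells, and 165 and 139 in WT luminal cells. Each Lats1-CKO group held 1 library below and 1 above all 4 WT libraries, so that the ranges overlapped in both comparisons of the genotypes. Its log2 fold change was −0.70 ± 0.79 (SE) for Lats1-CKO against WT basal-like cells, with a 95% interval of −2.55 to 1.14 (limma, adjusted p = 0.851). Between the luminal groups it was 0.13 ± 0.79 (limma, adjusted p = 1.0), between the basal-like and luminal populations of Lats1-CKO cells −0.77 ± 0.79 (limma, adjusted p = 0.934), and between those of WT cells 0.07 ± 0.79 (limma, adjusted p = 1.0). The transcript of the sort marker thus varied 7.01-fold over the 8 libraries, and the intervals leave room for differences of several fold in either direction.

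**Figure D1:**
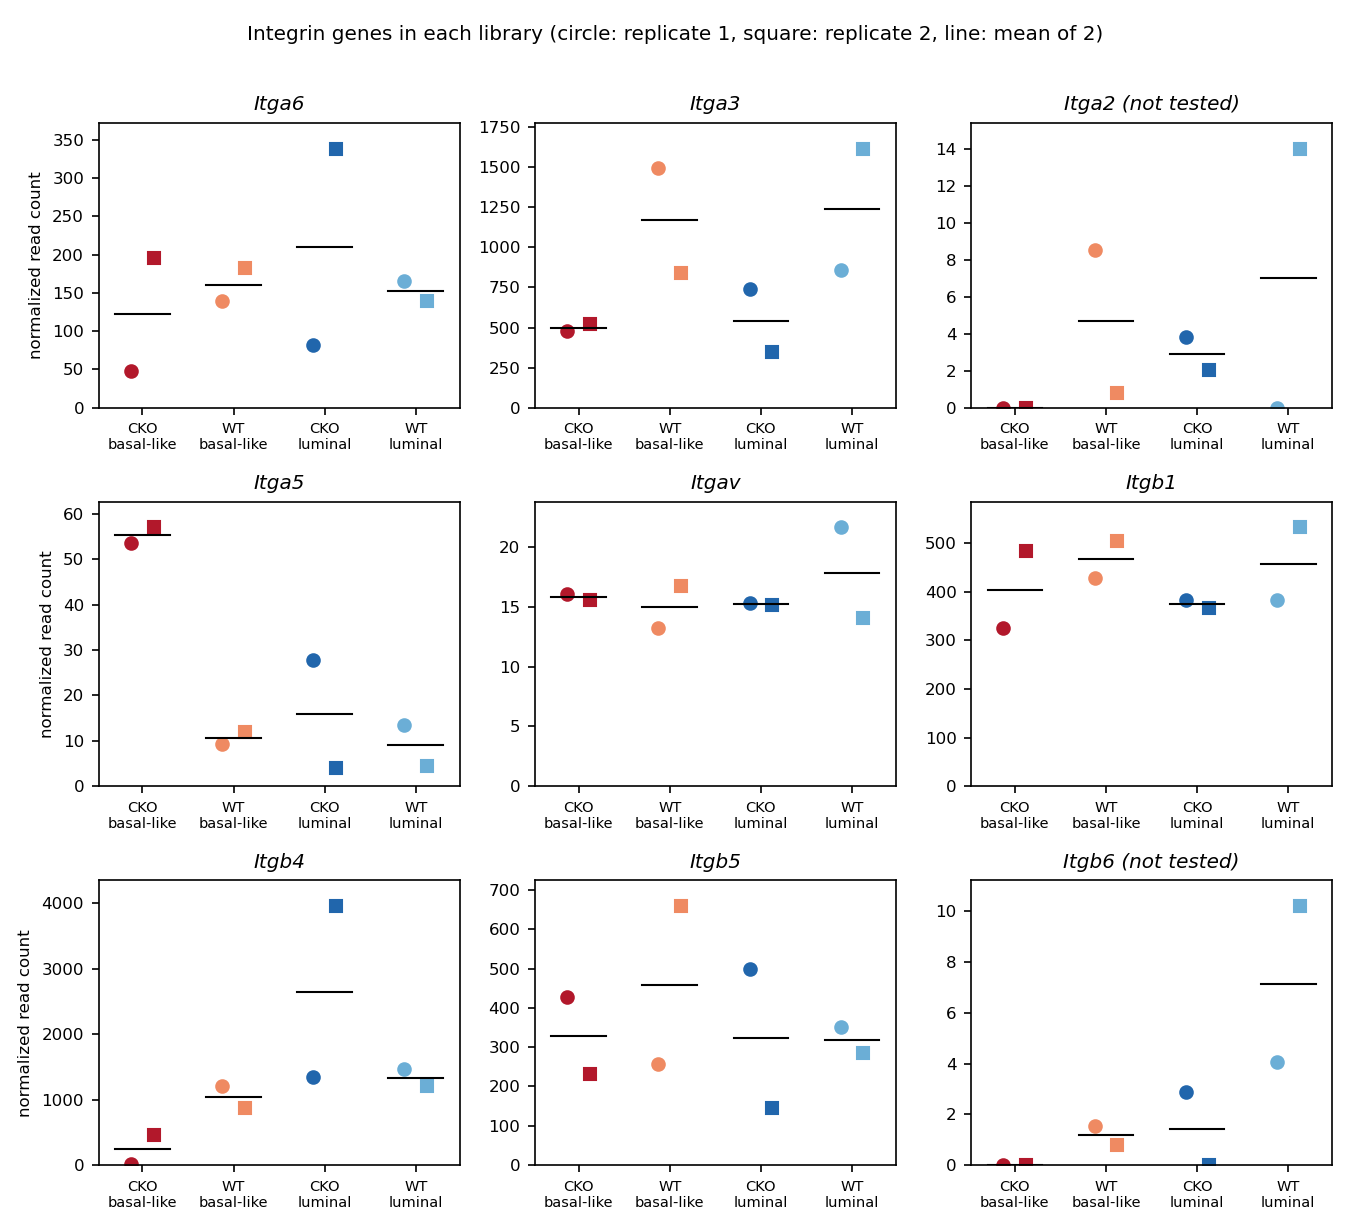
Normalized read counts (vertical axis, linear, from 0) of the 9 integrin genes with a row in the table, in Lats1-CKO and WT basal-like and luminal cells. Each point is a library and each line the mean of 2. Itga3 lies lower in all 4 Lats1-CKO libraries, Itga5 is high in both Lats1-CKO basal-like libraries, and Itgb4 is low there.

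Itgb4, the partner of α6 in hemidesmosomes, showed the widest spread of the 7 tested integrin genes. It had 22.8 and 454 normalized reads in Lats1-CKO basal-like cells, 1343 and 3956 in Lats1-CKO luminal cells, 1204 and 874 in WT basal-like cells, and 1462 and 1211 in WT luminal cells. Both Lats1-CKO basal-like libraries lay below the 6 others, as 8.99% of the 9031 tested genes did. The lower of these libraries held 17 Itgb4 reads and the other 351. The SD of Itgb4 over the 8 libraries was 2.19 on the log2 scale, a value that 97.8% of the tested genes did not exceed.

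In Lats1-CKO against WT basal-like cells, Itgb4 had a log2 fold change of −3.30 ± 1.21 (limma, unadjusted p = 0.0273, adjusted p = 0.467), which did not pass the threshold of an adjusted p under 0.05 over all genes. In Lats1-CKO cells, the basal-like minus luminal difference was −4.47 ± 1.21 (limma, unadjusted p = 0.00682, adjusted p = 0.340), whereas in WT cells it was −0.38 ± 1.21 (limma, adjusted p = 1.0). The difference between these 2 differences was −4.10 ± 1.70 (limma interaction, unadjusted p = 0.0454, adjusted p = 1.0), and it moved to −1.97 without the first and −6.23 without the second Lats1-CKO basal-like library. Between the luminal groups, Lats1-CKO against WT, the log2 fold change was 0.79 ± 1.21 (limma, adjusted p = 1.0), with 1.57 without the first and 0.014 without the second Lats1-CKO luminal library.

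The values for Itgb4 turned on which Lats1-CKO basal-like library was used. Without either, the group has 1 library, which is assumed to vary like the other groups. Without the library with 454 normalized reads, the log2 fold change was −5.43 against WT basal-like cells (limma, adjusted p = 0.0186) and −6.60 against Lats1-CKO luminal cells (limma, adjusted p = 0.00748), and without the library with 22.8 it was −1.17 (limma, adjusted p = 0.509) and −2.34 (limma, adjusted p = 0.265). DESeq2 on the recovered reads called the difference between the Lats1-CKO populations, at −3.47 (DESeq2, adjusted p = 0.0247), whereas edgeR on the same reads gave −3.51 (edgeR, adjusted p = 0.531) and the limma fit with only the compared groups −4.47 (limma, adjusted p = 0.754). Itgb4 lies on chromosome 11 (chr11:115974709-116008412, plus strand, GRCm38), and the galactokinase gene Galk1 ends 44 bases away on the opposite strand. The strand setting of the counting is not given in the sources used here, and Galk1 had 334 and 852 normalized reads in Lats1-CKO basal-like cells against 388 and 266 in WT basal-like cells.

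The ratio of Itgb4 to Itga6 reads set the Lats1-CKO basal-like cells apart from the other groups. It was 0.472 and 2.32 in Lats1-CKO basal-like cells, 16.5 and 11.7 in Lats1-CKO luminal cells, 8.65 and 4.79 in WT basal-like cells, and 8.87 and 8.71 in WT luminal cells. In the Lats1-CKO basal-like library with 454 normalized reads of Itgb4, Itga6 was at 195, above every WT library, and this high denominator contributed to the low ratio. These are ratios of 3′ reads between 2 genes, not of protein subunits, and they were not tested.

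**Figure D2:**
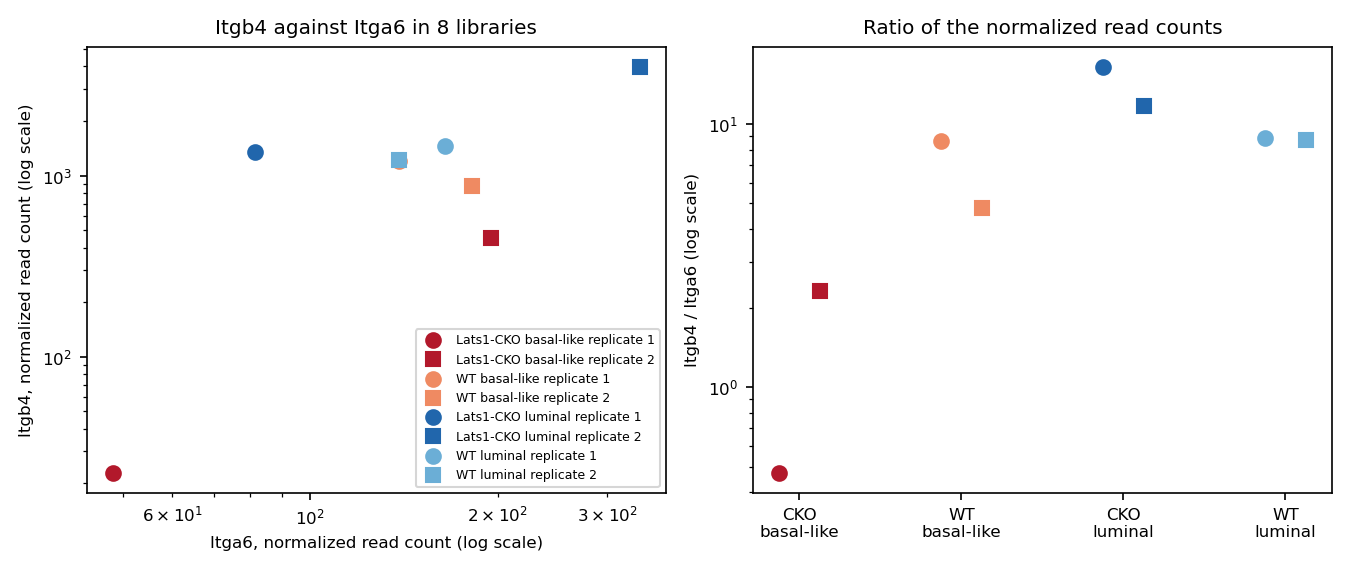
Left, normalized read counts of Itgb4 (vertical) against Itga6 (horizontal) in the 8 libraries, both on log axes. Right, their ratio by group, on a log axis, with the Lats1-CKO basal-like libraries at 0.472 and 2.32 and the 6 others between 4.79 and 16.5.

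The summed levels of luminal and of basal markers were also lowest in the Lats1-CKO basal-like cells. The summed level of the luminal markers (8 of 12 listed genes had a row) was 491 to 564 in Lats1-CKO basal-like cells, 2923 to 7085 in Lats1-CKO luminal cells, 3940 to 7742 in WT basal-like cells and 10779 to 11203 in WT luminal cells. That of the basal and myoepithelial markers (6 of 8 listed genes) was 177 to 805, 3056 to 19737, 1133 to 2143 and 1994 to 3870 in the same order of groups. Most of the basal sum was Krt14, a keratin of basal epithelial cells, at 125 and 681 in Lats1-CKO basal-like cells. Krt5 had 22.8 and 24.6 there, within the WT range of 18.3 to 31.9. Oxtr had 0 and 88.0 there, against at most 10.3 in the WT libraries. Against WT basal-like cells, 4 of the 5 tested basal markers had negative log2 fold changes and 1 positive (median −0.36). All 8 tested luminal markers were negative there (median −4.09). Of these, limma called 4 as lower (Krt18, Krt8, Epcam and Cldn3), where 0.443% of all tested genes were so called. Between the Lats1-CKO populations, 3 were called as lower in basal-like cells (Krt8, Epcam and Krt18), against 0.487% of all tested genes. In Lats1-CKO against WT averaged over the populations, Krt18 alone was called as lower, against 0.188%. The luminal sums did not otherwise follow Itgb4, being highest in WT luminal cells, whereas the basal sum and Itgb4 were both highest in the second Lats1-CKO luminal library. In these bulk libraries, fewer cells of a type and less RNA per cell cannot be told apart, and the part of the cell mixture in the Itgb4 result was not tested. No listed basal marker other than Krt14 followed Itgb4 closely enough to be among its 5 most similar genes.

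Those 5 genes, by the root mean square difference of log2 values centered over the 8 libraries, were AI661453 (0.505), Lamb3 (0.535), Ptprf (0.599), Lypd3 (0.617) and Krt14 (0.661). Lamb3 encodes the β3 chain of laminin-332, the ligand of α6β4. It had 5.36 and 54.4 normalized reads in Lats1-CKO basal-like cells, 88.3 and 475 in Lats1-CKO luminal cells, 120 and 132 in WT basal-like cells, and 214 and 174 in WT luminal cells. For Itga6 the 5 most similar genes were Emp2 (0.280), Xylb (0.292), Virma (0.297), Emb (0.303) and Ttc23 (0.333). Emp2, a small membrane protein, had 87.1 and 450 normalized reads in Lats1-CKO basal-like cells, 209 and 466 in Lats1-CKO luminal cells, 319 and 381 in WT basal-like cells, and 393 and 350 in WT luminal cells. Itgb4 and Itga6 differed by 1.53 in this measure, which also takes in the unequal spread of the genes (SD 2.19 and 0.84 on the log2 scale). By it, Itga6 ranked 343 among the genes most similar to Itgb4, ahead of the other 5 tested integrin genes, while Itgb4 ranked 8159 among those most similar to Itga6.

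Itga3, which encodes the α3 laminin receptor subunit, was lower in every Lats1-CKO library than in every WT library. It had 480 and 520 normalized reads in Lats1-CKO basal-like cells, 738 and 344 in Lats1-CKO luminal cells, 1493 and 843 in WT basal-like cells, and 858 and 1616 in WT luminal cells. Over 4 libraries each, the mean was 520 ± 163 in Lats1-CKO cells and 1203 ± 409 in WT cells (SD). Such a separation of all 4 from all 4 libraries in the lower direction was seen for 2.11% of the tested genes and for 1 of the 7 integrin genes, and in the higher direction for 2.44% of the tested genes and 0 of the 7. No population difference was called in either genotype: the log2 fold change of basal-like against luminal cells was −0.01 ± 0.48 in Lats1-CKO cells (limma, adjusted p = 0.998) and −0.07 ± 0.48 in WT cells (limma, adjusted p = 1.0), with 95% intervals of −1.14 to 1.11 and −1.19 to 1.06.

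By population, Lats1-CKO against WT, the log2 fold change of Itga3 was −1.17 ± 0.48 in basal-like cells (limma, unadjusted p = 0.0439, adjusted p = 0.545) and −1.22 ± 0.48 in luminal cells (limma, unadjusted p = 0.0368, adjusted p = 1.0), so neither was called. A contrast of Lats1-CKO against WT averaged over the populations, added after the values were seen, gave −1.19 ± 0.34 (limma, unadjusted p = 0.00896, adjusted p = 0.315), and the same contrast in DESeq2 gave −1.21 (DESeq2, adjusted p = 0.0473). Leaving out any single library kept the averaged log2 fold change between −1.47 and −0.92. The value in basal-like cells moved to −0.75 without the first WT basal-like library, and that in luminal cells to −0.67 without the second Lats1-CKO luminal library.

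RefSeq promoter windows (GRCm38.p6, 250 bases before to 50 after a start site) matched 8 of the 10 genes, in 10 windows. The windows of Itga3 and Itga5 are shown because these genes separated groups in opposite directions. Letters were searched on both strands for a core TEAD motif (GGAATG, bound by the partners of YAP), an AP-1 motif (TGANTCA) and a GC box (GGGCGG), and matches on either strand are in capitals (CCGCCC is a GC box on the other strand). The Itga3 window at chr11:95076665-95076964 (minus strand) held 3 GC boxes and neither of the other motifs, and the Itga5 window at chr15:103366742-103367041 (minus strand) held 2 GC boxes and neither of the others.
Itga3: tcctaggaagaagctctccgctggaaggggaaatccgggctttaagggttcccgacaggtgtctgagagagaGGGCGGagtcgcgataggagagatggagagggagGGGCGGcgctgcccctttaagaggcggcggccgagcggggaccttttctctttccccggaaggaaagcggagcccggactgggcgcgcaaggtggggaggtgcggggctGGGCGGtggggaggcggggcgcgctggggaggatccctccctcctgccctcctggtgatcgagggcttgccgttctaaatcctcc
Itga5: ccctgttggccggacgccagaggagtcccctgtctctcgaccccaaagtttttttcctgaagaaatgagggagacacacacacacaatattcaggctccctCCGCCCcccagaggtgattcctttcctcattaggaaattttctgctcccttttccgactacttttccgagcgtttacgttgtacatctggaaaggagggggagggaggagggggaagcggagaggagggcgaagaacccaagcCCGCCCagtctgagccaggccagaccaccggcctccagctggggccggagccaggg
Of 32851 windows of this length, 35.7% held a GC box, 14.7% the TEAD core and 7.81% the AP-1 motif, so that a GC box is a common feature. Of the 10 integrin windows, the one of Itgb1 had a TEAD core and a further downstream window of Itga3, not shown, had an AP-1 motif. A match is a description of the letters, and a window without one says only that these letters are not in it.

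Itga5, the α subunit of the fibronectin receptor, was highest in Lats1-CKO basal-like cells. It had 53.6 and 57.0 normalized reads there, 27.8 and 4.04 in Lats1-CKO luminal cells, 9.33 and 11.9 in WT basal-like cells, and 13.5 and 4.47 in WT luminal cells. Both Lats1-CKO basal-like libraries lay above the 6 others, as 8.39% of tested genes did. In log2 units, Itga5 differed by 2.28 ± 0.86 against WT basal-like cells (limma, unadjusted p = 0.0308, adjusted p = 0.484) and 2.22 ± 0.86 against Lats1-CKO luminal cells (limma, unadjusted p = 0.0342, adjusted p = 0.616), and neither passed the threshold. The first kept a value of 2.12 to 2.45 without any single library, while the second was 0.96 without the Lats1-CKO luminal library at 4.04 and 3.48 without the one at 27.8. The interaction was 1.85 ± 1.21 (limma, adjusted p = 1.0), and it was 3.10 without the first Lats1-CKO luminal library, 0.59 without the second and 1.14 without the first WT luminal library. In luminal cells, Lats1-CKO against WT, the log2 fold change was 0.44 ± 0.86 (limma, adjusted p = 1.0). Itga5 lies at chr15:103344286-103366763 on the minus strand, and its values rest on few reads, 84 in the 2 Lats1-CKO basal-like libraries together and 27 in the 2 WT basal-like libraries.

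Summed over genes, fibroblast markers were highest in the 2 libraries with the highest Itga5. Their summed level (7 of 8 listed genes had a row) was 509 to 1160 in Lats1-CKO basal-like cells, 213 to 339 in Lats1-CKO luminal cells, 49.7 to 430 in WT basal-like cells and 13.4 to 47.3 in WT luminal cells. All 5 tested markers had positive log2 fold changes in Lats1-CKO against WT basal-like cells (median 2.15) and 0 were called. Col3a1, a collagen of connective tissue, had 238 and 38.8 normalized reads in Lats1-CKO basal-like cells against 1.55 and 1.59 in WT basal-like cells (5.25 ± 0.99, limma, unadjusted p = 0.000923, adjusted p = 0.113). Pdgfrb, a receptor of mesenchymal cells, had 666 and 198 normalized reads in Lats1-CKO basal-like cells against 37.3 and 352 in WT basal-like cells. In the same comparison, Pdgfra had 76.3 and 2.59 against 1.55 and 4.77, and Postn 159 and 25.9 against 2.33 and 64.4. The stromal proteoglycan gene Dcn was at 0 in 7 of the 8 libraries. Elsewhere the sum did not follow Itga5. It was 430 in the second WT basal-like library, with Itga5 at 11.9, and 339 in the first Lats1-CKO luminal library, with Itga5 at 27.8. Leukocyte markers (4 of 8 listed genes had a row) summed to 50.9 to 90.6 in Lats1-CKO basal-like cells and 11.9 to 17.1 in WT basal-like cells. In luminal cells the sum was 9.08 to 48.0 for Lats1-CKO and 12.2 to 33.8 for WT. The markers did not move together. Cd68 had 24.1 and 73.8 normalized reads in Lats1-CKO basal-like cells against 9.33 and 7.96 in WT basal-like cells. In the same comparison, Csf1r had 8.04 and 0 against 2.33 and 0, and Itgb2 17.4 and 1.29 against 5.44 and 3.18. Whether fibroblasts or leukocytes had a part in the Itga5 result was not tested.

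Itgb1, the common partner of α2, α3, α5, α6 and αv, was nearly even. It had 325 and 483 normalized reads in Lats1-CKO basal-like cells, 384 and 367 in Lats1-CKO luminal cells, 428 and 505 in WT basal-like cells, and 382 and 532 in WT luminal cells. Its SD over the 8 libraries was 0.25 on the log2 scale, at or above that of 11.3% of the tested genes. Lats1-CKO minus WT, its log2 fold change was −0.23 ± 0.30 in basal-like cells (limma, adjusted p = 0.875) and −0.26 ± 0.30 in luminal cells (limma, adjusted p = 1.0). In basal-like cells the 95% interval ran from −0.94 to 0.48, so changes within that interval are not excluded by these libraries.

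Itgav, the shared α subunit of the RGD receptors, was also even, at a low level. It had 16.1 and 15.5 normalized reads in Lats1-CKO basal-like cells, 15.4 and 15.1 in Lats1-CKO luminal cells, 13.2 and 16.7 in WT basal-like cells, and 21.6 and 14.0 in WT luminal cells. Lats1-CKO minus WT, it differed by 0.08 ± 0.44 log2 units in basal-like cells, with a 95% interval of −0.95 to 1.11 (limma, adjusted p = 0.976), and −0.18 ± 0.44 in luminal cells (limma, adjusted p = 1.0). With 12 to 22 reads per library, its values are limited by counting. Its SD of 0.20 was at or above that of 5.54% of the tested genes.

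Itgb5, a partner of αv, varied within groups more than between them. It had 429 and 230 normalized reads in Lats1-CKO basal-like cells, 499 and 146 in Lats1-CKO luminal cells, 256 and 659 in WT basal-like cells, and 350 and 285 in WT luminal cells. The ranges overlapped between genotypes in both populations. Its log2 fold change, Lats1-CKO against WT, was −0.39 ± 0.67 in basal-like cells (limma, adjusted p = 0.913) and −0.22 ± 0.67 in luminal cells (limma, adjusted p = 1.0), and the sign of the second was positive in edgeR and DESeq2.

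Itga2, the α2 collagen receptor subunit, and Itgb6, an epithelial partner of αv, were at the edge of detection. Itga2 had no read in both Lats1-CKO basal-like libraries, 3.84 and 2.02 normalized reads in Lats1-CKO luminal cells, 8.55 and 0.796 in WT basal-like cells, and 0 and 14.0 in WT luminal cells. Set at a floor of 3 reads over the group, Lats1-CKO basal-like cells were at least 2.39-fold lower than WT basal-like cells, where 12 reads were counted, 11 of them in 1 library. Itgb6 was likewise at 0 in both Lats1-CKO basal-like libraries, with 2.88 and 0 normalized reads in Lats1-CKO luminal cells, 1.55 and 0.796 in WT basal-like cells, and 4.05 and 10.2 in WT luminal cells. WT basal-like cells held 3 Itgb6 reads in all, at the floor itself, so no fold was computed. Such floors cover counting error only, since molecular identifiers are not mentioned in the sources used here.

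Counted together, none of the 7 tested integrin genes passed an adjusted p under 0.05 in limma. For Lats1-CKO against WT basal-like cells this was 0 of 7, where 0.554% of all tested genes were called, 0.111% as higher and 0.443% as lower. At an unadjusted p under 0.05 it was 3 of 7 (Itgb4 and Itga3 lower, Itga5 higher) where 8.86% of all genes passed. In luminal cells, Lats1-CKO against WT, 0 of 7 were called (0.0% of all genes) and 1 of 7, Itga3, had an unadjusted p under 0.05 (2.78% of all genes). There limma and edgeR called 0 of the 9031 genes, 251 genes had an unadjusted p under 0.05 in limma, and DESeq2 called 25 (0.277%), 0 of the 7 integrin genes among them.

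Between the Lats1-CKO populations, 0 of 7 integrin genes were called (0.487% of all genes, each of them lower in basal-like cells) and 2 of 7, Itgb4 and Itga5, had an unadjusted p under 0.05 (7.32% of all genes). DESeq2 called 1 of 7, Itgb4 (1.43% of all genes). Between the WT populations, 0 of 7 were called (0.0% of all genes) and 0 of 7 had an unadjusted p under 0.05 (1.47%). Limma and edgeR called none of the 9031 genes there, 133 had an unadjusted p under 0.05 and DESeq2 called 4 (0.0443%), again without any of the 7. In the interaction, 0 of 7 were called (0.0% of all genes) and 1 of 7, Itgb4, had an unadjusted p under 0.05 (2.33%). There limma and edgeR called no gene, 210 had an unadjusted p under 0.05 and DESeq2 called 25. In the contrast averaged over populations, 0 of 7 were called (0.288% of all genes, 0.0997% as higher and 0.188% as lower) and 1 of 7, Itga3, had an unadjusted p under 0.05 (9.36%).

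By ranges alone, 1 of the 7 was higher (17.1% of all genes) and 2 of 7 were lower (18.2%) without overlap in Lats1-CKO than in WT basal-like cells. In luminal cells these counts were 0 of 7 higher (15.9%) and 1 of 7 lower (15.2%). The Lats1-CKO basal-like libraries were higher without overlap than the Lats1-CKO luminal ones for 2 of 7 (17.8%), of which Itgav lay at 16.1 and 15.5 against 15.4 and 15.1, and lower for 1 of 7 (18.0%). In WT cells, 0 of 7 were higher (11.9%) and 1 of 7, Itgb4, was lower (12.7%), with 1204 in the higher WT basal-like library just under 1211 in the lower WT luminal one.

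**Figure D3:**
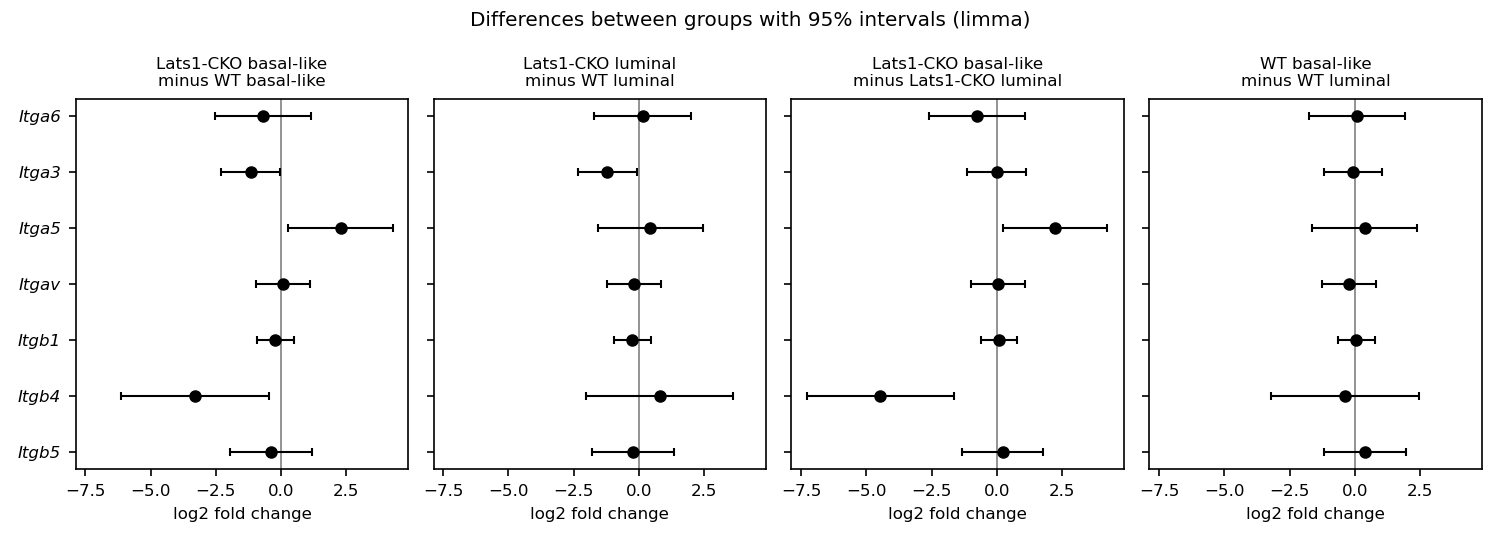
Log2 fold changes (horizontal axis) of the 7 tested integrin genes in 4 comparisons, first named group minus the second, with 95% intervals from limma. Itgb4 has the widest intervals, and those of Itga3, Itga5 and Itgb4 in the left panel leave out 0 without passing the adjustment over all genes.

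The laminins, ligands of α3β1, α6β1 and α6β4, held the only gene of the ligand and adhesion lists that was called. Of 10 listed laminin chains, 8 were tested in Lats1-CKO against WT basal-like cells. Of these, 1 was called as lower and 0 as higher, where 0.443% and 0.111% of all tested genes were called. The median log2 fold change of the laminin chains was −0.97, against −0.02 over all genes. The called gene was Lama5, the α5 chain of the broadly expressed basement membrane laminins. It had 87.1 and 107 normalized reads in Lats1-CKO basal-like cells, 317 and 202 in Lats1-CKO luminal cells, 506 and 616 in WT basal-like cells, and 568 and 619 in WT luminal cells, so that all 4 Lats1-CKO libraries lay below all 4 WT libraries, as Itga3 did.

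Lama5 had a log2 fold change in basal-like cells, Lats1-CKO against WT, of −2.52 ± 0.31 (limma, adjusted p = 0.0237), and in luminal cells of −1.23 ± 0.31 (limma, unadjusted p = 0.00462, adjusted p = 1.0). Averaged over the populations it was −1.87 ± 0.22 (limma, adjusted p = 0.0357), a call that was lost without any of the 4 WT libraries, the first Lats1-CKO basal-like or the second Lats1-CKO luminal library (limma, adjusted p from 0.0573 to 0.191). The call in basal-like cells was lost with only the compared groups in the fit (limma, adjusted p = 0.172), in edgeR (edgeR, adjusted p = 0.0501), and without the first Lats1-CKO basal-like library (limma, adjusted p = 0.0898), either WT basal-like library (limma, adjusted p = 0.161 and 0.131) or either WT luminal library (limma, adjusted p = 0.0775 and 0.0787), at log2 fold changes between −2.66 and −2.37. Lamb3 had a log2 fold change of −2.76 ± 1.06 (limma, unadjusted p = 0.0338, adjusted p = 0.499), and Lama3, a laminin α chain, had −2.34 ± 1.12 (limma, unadjusted p = 0.0732, adjusted p = 0.613). The laminin chains did not all lie on the same side, since 6 of the 8 had negative and 2 positive log2 fold changes. Lama4, an α chain of vessel and muscle laminins, had 61.6 and 132 normalized reads in Lats1-CKO basal-like cells against 3.89 and 23.1 in WT basal-like cells (3.07 ± 1.40, limma, unadjusted p = 0.0624, adjusted p = 0.591), and averaged over the populations it differed by 2.62 ± 0.99 (limma, unadjusted p = 0.0318, adjusted p = 0.473).

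Ligands with an RGD motif and collagen I were not called. Of 16 listed genes 12 were tested, 0 were called in either direction, and the median log2 fold change in basal-like cells, Lats1-CKO against WT, was 0.54. Tgfbi, a matrix protein, had 57.6 and 18.1 normalized reads in Lats1-CKO basal-like cells against 0 and 0.796 in WT basal-like cells (log2 fold change 4.64 ± 1.17, limma, unadjusted p = 0.00486, adjusted p = 0.265). Ccn1, a target of YAP and a ligand of αv and α6 integrins, had 1392 and 2484 against 636 and 456 (1.79 ± 0.47, limma, unadjusted p = 0.00624, adjusted p = 0.292). Fbn1, which encodes fibrillin 1, had 67.0 and 66.0 against 17.1 and 12.7 (2.10 ± 0.76, limma, unadjusted p = 0.0263, adjusted p = 0.467). Fn1, the fibronectin gene and the ligand of α5β1, had 5769 and 12369 in Lats1-CKO basal-like cells against 2490 and 5826 in WT basal-like cells, ranges that overlapped narrowly (1.15 ± 0.55, limma, adjusted p = 0.613).

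Inside the cell, 24 of 26 listed tail binders and adhesion adaptors were tested and 0 were called, with a median log2 fold change of 0.18. Fermt1, the kindlin of epithelial cells that activates integrins through the β tail, had 8.04 and 2.59 normalized reads in Lats1-CKO basal-like cells against 31.1 and 20.7 in WT basal-like cells (−2.21 ± 0.65, limma, unadjusted p = 0.0101, adjusted p = 0.349). Its widely expressed relative Fermt2 had 67.0 and 59.5 against 26.4 and 55.7 (0.70 ± 0.42, limma, adjusted p = 0.696). Among 9 hemidesmosome partners and tetraspanins, all tested, 0 were called. Plec, which encodes plectin, the linker between β4 and keratin filaments, had 1254 and 1131 normalized reads in Lats1-CKO basal-like cells against 507 and 289 in WT basal-like cells (1.64 ± 0.39, limma, unadjusted p = 0.00379, adjusted p = 0.233), while Krt14 had 125 and 681 against 2098 and 1098 (−2.38 ± 0.96, limma, unadjusted p = 0.0404, adjusted p = 0.537). In the other comparisons, no gene of these ligand, adaptor and hemidesmosome lists was called in limma, apart from Lama5 in the averaged contrast.

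**Figure D4:**
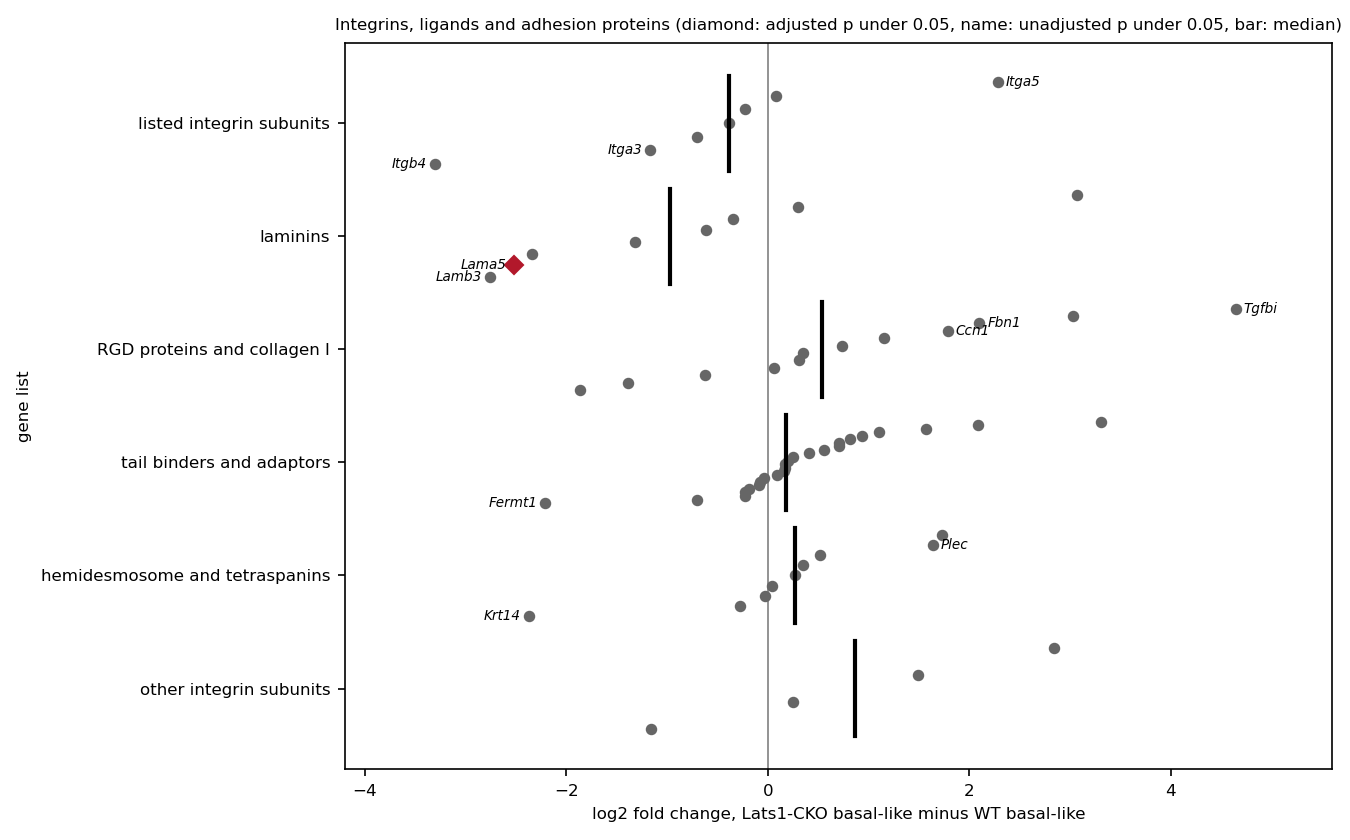
Log2 fold changes (horizontal axis) of the tested genes of 6 lists, Lats1-CKO basal-like minus WT basal-like. Circles are genes, the diamond is Lama5 (limma, adjusted p = 0.0237), names mark an unadjusted p under 0.05, and bars are medians (−0.97 for the laminins, 0.54 for RGD proteins and collagen I).

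Of 17 further integrin genes, 8 had a row. Itga10, a collagen receptor subunit of cartilage, had 0 and 73.8 normalized reads in Lats1-CKO basal-like cells, 0 and 5.05 in Lats1-CKO luminal cells, 0.777 and 0.796 in WT basal-like cells and 0 in both WT luminal libraries. The 2 libraries with over 1 normalized read of Itga10 were those with the high Col2a1 levels given above. Itgb3, a partner of αv, had 13.4 and 184 in Lats1-CKO basal-like cells, 20.2 and 32.3 in Lats1-CKO luminal cells, 3.89 and 68.4 in WT basal-like cells and 21.6 and 7.02 in WT luminal cells, so its highest library was the same one. Itga8, an RGD receptor subunit, was high in libraries of several groups, with 2.68 and 113 in Lats1-CKO basal-like cells, 29.7 and 78.7 in Lats1-CKO luminal cells, 17.9 and 109 in WT basal-like cells, and 37.8 and 30.0 in WT luminal cells.

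Itga11, a collagen receptor subunit of fibroblasts, had 37.5 and 9.06 normalized reads in Lats1-CKO basal-like cells, 4.80 and 2.02 in Lats1-CKO luminal cells, 0 and 6.36 in WT basal-like cells and 0 in both WT luminal libraries. All 4 Lats1-CKO libraries held Itga11 reads, against 1 of 4 WT libraries. It did not pass the filter on low values and was not tested. Of the 6 further genes other than Itgb2 and Itga2b, 4 were tested in Lats1-CKO against WT basal-like cells and 0 were called. Their log2 fold changes ran from −1.16 (Itga8) to 2.84 (Itgb7). Itgb7 had 21.4 and 1.29 normalized reads in Lats1-CKO basal-like cells and 0 in both WT basal-like libraries, so its value rests mostly on 1 library. The leukocyte subunit Itgb2 had 17.4 and 1.29 normalized reads in Lats1-CKO basal-like cells against 5.44 and 3.18 in WT basal-like cells, and the platelet subunit Itga2b 14.7 and 5.18 against 3.11 and 6.36.

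**Figure D5:**
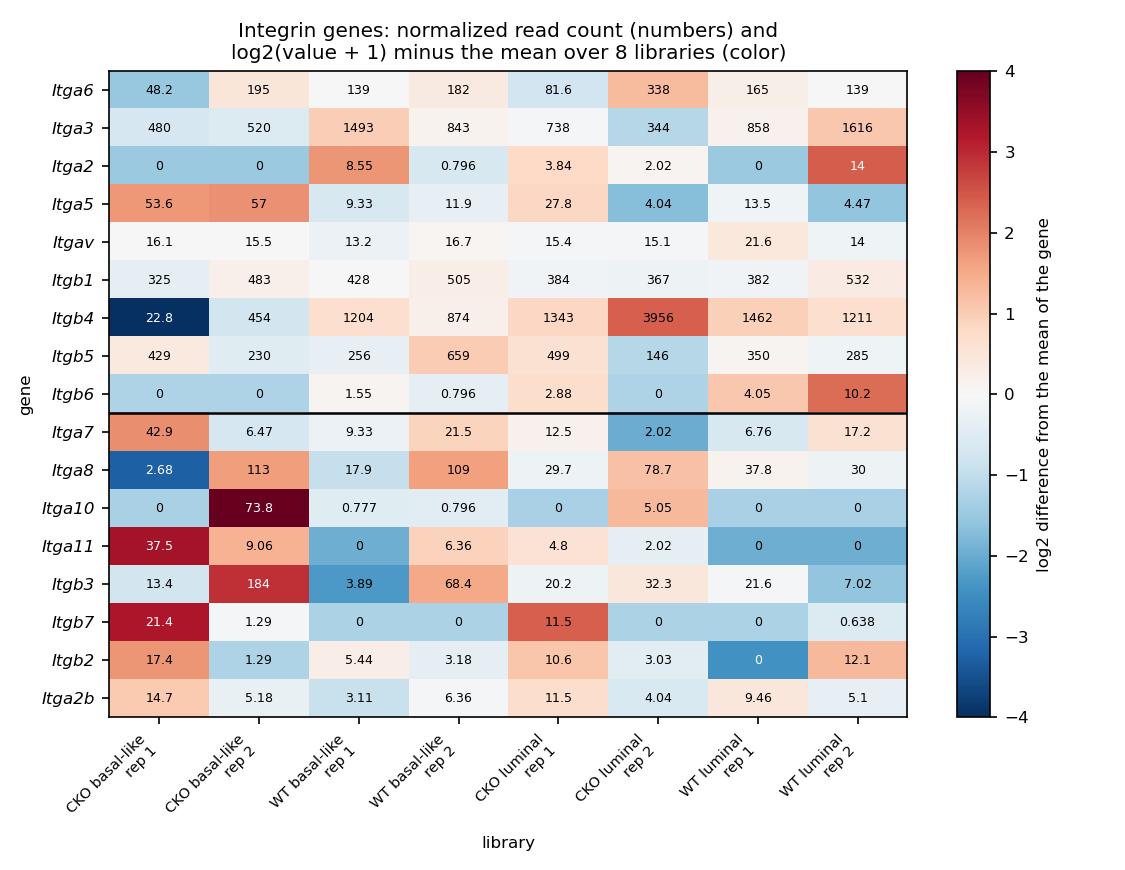
All 17 integrin genes with a row (listed genes above the line, further ones below) in the 8 libraries. Numbers are normalized read counts and colors the log2(value + 1) minus the mean of the gene over 8 libraries, and Itgb4 is lowest at 22.8 while Itga10 is highest at 73.8 in the 2 different Lats1-CKO basal-like libraries.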

How the data were processed

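RNA from 8 sorted and briefly cultured populations was profiled by MARS-seq. Per the study's methods, the authors used cutadapt for trimming, STAR for alignment to mm10, and htseq-count in union mode over Gencode genes extended by 1000 bases at the 5′ and 100 bases at the 3′ edge, and kept genes with at least 5 reads in a library. The strand setting, any molecular identifiers and the Gencode release are not given in the sources used here. The deposited signal of a gene is its reads in that library over the size factor from DESeq2. The table also holds the authors' fold changes and p-values for 6 pairs of groups, which were not used.

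Dividing by the worth of 1 read gave whole reads for 100% of values (tolerance 1e-06), 1070358 to 2334446 per library. Differences were tested on log2(value + 1), which understates changes of low genes, in limma 3.58.1 under R 4.3.3 with its trend option, for the 9031 genes that reached 10 in 2 or more libraries (1893 left out). All 8 libraries entered 1 model with 4 group coefficients. P-values were adjusted by Benjamini-Hochberg over all genes, and errors of fold changes are SE. edgeR 4.0.16 and DESeq2 1.42.0 on recovered reads, other pseudocounts, filters and scaling, and omission of each library were alternatives. The procedure was tested on simulated counts with the same dispersion for every gene. That setting lacks the wide and unequal spread between libraries seen here, so it does not show how the procedure performs on these data. Gene lists, 12 in number, gave counts and medians only. Named were the listed integrins, Lats1 and Epcam, defining markers of other cell types, called list genes or otherwise up to 3 with the lowest unadjusted p under 0.05, and the 5 genes most similar to Itga6 and Itgb4; Fn1, Fermt2, Lama3, Lama4, Galk1, B230344G16Rik, Krt5, Acan, Oxtr and the further integrins were named after their values were seen. The listed genes and lists were chosen with earlier results of these data known. Coordinates are from GENCODE M21 (GRCm38), where 10759 of 10924 symbols matched.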

Additional observations from a re-analysis of the deposited data

How the results depend on the processing

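With 2 libraries a group, few differences could pass an adjustment over 9031 genes, and the count of calls moved with the tool more than the integrin values did. No paired analysis was run, because no label states which libraries belong together. The library codes run through the 4 groups and then through them again in the same order. In Lats1-CKO cells, basal-like libraries were closer to the luminal library of the same number (Pearson r = 0.852 and 0.868) than to the other (0.749 and 0.808). In WT cells, both basal-like libraries were closer to the second luminal library (0.942 and 0.901) than to the first (0.895 and 0.880). Pairing by this order was not tested. Of 25 selected integrin fold changes, 12 kept their direction under every alternative tried, 13 reversed when a library was left out, and 1 of these also in a count test. The 25 held all 7 tested genes for Lats1-CKO against WT in each population. They left out Itgav, Itgb1 and Itgb5 between the populations and most of the interaction and averaged values. The causes were not tested.

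Lats1-CKO against WT basal-like cells gave 50 called genes, against 0 with only the compared groups, 17 in edgeR, 190 in DESeq2 with default and 170 with the study's settings, 798 at the study's threshold (over 1.5-fold and an unadjusted p under 0.05, here on limma's values) and 0 to 81 when a library was left out (0 without the first WT basal-like library, 4 without the second, 9 without either WT luminal library, 20 without the first and 81 without the second Lats1-CKO basal-like library, 25 without either Lats1-CKO luminal library). Integrins called were 3 at the study's threshold and 0 to 1 without a library. The luminal comparison gave 1 gene with a minimum value of 20, 25 and 27 in DESeq2 with default and study settings, 251 at the study's threshold and 0 to 2 without a library, with 1 integrin at that threshold.

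Between the Lats1-CKO populations, 44 genes became 0 with only the compared groups, 129 and 138 in DESeq2, 660 at the study's threshold and 9 to 96 without a library. Integrins called there were 1 under both DESeq2 settings, 2 at the study's threshold and 0 to 1 without a library. Between the WT populations DESeq2 gave 4 and 1 genes and the study's threshold 133. The interaction gave 25 genes in DESeq2, 0 to 2 without a library, and 210 genes with 1 integrin at the study's threshold. The averaged contrast gave 271 genes and 1 integrin in DESeq2, 785 genes and 1 integrin at the study's threshold and 0 to 70 genes without a library.

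The log2 fold change of Itgb5 in luminal cells turned to 0.041 in edgeR and to 0.024 and 0.019 in DESeq2 with default and study settings. Leaving out 1 library gave these ranges, which cross 0. In basal-like cells, Lats1-CKO against WT, they were −1.70 to 0.29 for Itga6, −0.076 to 0.24 for Itgav, −0.51 to 0.054 for Itgb1 and −1.07 to 0.29 for Itgb5. In luminal cells they were −0.88 to 1.15 for Itga6, −0.82 to 1.70 for Itga5, −0.48 to 0.11 for Itgav and −1.11 to 0.66 for Itgb5. Between the Lats1-CKO populations they were −1.79 to 0.25 for Itga6 and −0.56 to 0.54 for Itga3, and between the WT populations −0.12 to 0.27 for Itga6, −0.53 to 0.39 for Itga3 and −0.33 to 1.08 for Itga5.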

Other observations

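Keratin and cartilage genes separated single libraries of 1 group from each other. Krt5, a keratin of basal epithelial cells, had 29.7 and 4881 normalized reads in the 2 Lats1-CKO luminal libraries, against 18.3 to 31.9 in the 4 WT libraries and 22.8 and 24.6 in Lats1-CKO basal-like cells. Krt14 had 3019 and 14721 in the same Lats1-CKO luminal libraries. The aggrecan gene Acan, a cartilage proteoglycan, had 29.5 and 5422 in Lats1-CKO basal-like cells and 24.9 and 482 in Lats1-CKO luminal cells, against 28.4 to 38.1 in the 4 WT libraries. The summed cartilage markers (6 of 8 listed genes) ranged from 292 to 31539 in Lats1-CKO basal-like cells, 428 to 4526 in Lats1-CKO luminal cells, 434 to 615 in WT basal-like cells and 453 to 592 in WT luminal cells. Oxtr, the oxytocin receptor gene of myoepithelial cells, had 0 and 88.0 in Lats1-CKO basal-like cells and 0.960 and 36.3 in Lats1-CKO luminal cells, against 0 and 10.3 in WT basal-like cells and 2.70 and 0.638 in WT luminal cells. The lncRNA gene B230344G16Rik, which overlaps Itgb4 on the opposite strand, had 0 and 18.1 in Lats1-CKO basal-like cells, 0 and 6.06 in Lats1-CKO luminal cells and at most 1.59 in the WT libraries.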
